A study of Mus musculus with 12 samples.

Results

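Striatal projection neuron genes are genes that mark the principal neurons of the striatum, the region next to the subependymal zone. A set of 9 such genes was followed through the expression table of mouse brain cells, out of 55862 genes in all. The members were taken by symbol and were Ppp1r1b, Drd1, Drd2, Adora2a, Penk, Tac1, Rgs9, Pde10a and Pde1b. The rule that picks them uses symbols and no expression value, although the set was drawn up with earlier results of these data known. Each symbol was found once in the table.

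RNA was sequenced from 12 samples of mouse brain cells, 3 in each of 4 groups, to set astrocytes before and after sphere culture against brain-derived neural progenitor cells (NPCs). ASTs were primary astrocytes from the cerebral cortex of newborn mice, grown with serum and collected at day 0 of sphere culture. A-iSCs were the same kind of astrocytes after sphere culture on agarose for 5 days. P56-NPCs came from the subependymal zone at postnatal day 56, and the hippocampus at postnatal day 0 was the source of P0-NPCs. The labels give the strain C57BL/6 for every sample, and the methods name C57BL/6J for the mice of both NPC groups. No group carried a genetic change. The NPC groups were suspensions made by dissociation and centrifugation, with a cell strainer named for P56-NPCs, and no sort for a cell type is in the methods, so they can hold every cell type that survived these steps. They also differ from each other in region and age at the same time, and these cannot be told apart. How many animals stood behind each sample is not given in the sources used here, so p-values measure the spread between these samples, which may be technical in part.

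The striatum holds mainly inhibitory neurons that project out of it, and these neurons receive dopamine. They fall into a direct pathway, which carries the dopamine D1 receptor and the peptide substance P, and an indirect pathway, which carries the dopamine D2 receptor, the 2A receptor of adenosine and enkephalin. Dopamine acts in both through cyclic AMP and protein kinase A, whose substrate DARPP-32 in its phosphorylated form inhibits protein phosphatase 1. Phosphodiesterases and the regulator of G protein signalling RGS9 end these signals. None of the genes is used by the striatum alone.

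Each sample held 17077780 to 24452419 counted fragments. Values are in FPKM, fragments corrected for the length of the gene and the size of the library, so levels can be compared between genes. Calls below are Benjamini-Hochberg adjusted p under 0.05 from limma on log2(FPKM + 1), over genes with a mean of at least 1 FPKM in at least 1 of the 2 groups. Mitochondrial genes took 16.5% to 17.6% of the fragments in P56-NPCs and 2.94% to 7.03% in the other samples. Markers of several cell types were present in each suspension, as the plot of summed marker levels shows. The 4 oligodendrocyte markers summed to 7851 to 8963 FPKM in P56-NPCs and to at most 9.03 FPKM elsewhere. The 7 markers of cortical and hippocampal excitatory neurons summed to 391 to 442 FPKM in P56-NPCs and 189 to 232 FPKM in P0-NPCs, and to at most 2.93 FPKM in the astrocyte-derived groups. The P56-NPC sum was mostly Camk2a (391 FPKM, against 6.40 FPKM in P0-NPCs). Of the 7 markers, 5 were lower in P56-NPCs than in P0-NPCs, so the P56-NPC sum is not read as a measure of these neurons. Gfap, the astrocyte filament gene, had 29.9 ± 2.30 FPKM in ASTs, while A-iSCs had 970.0 ± 448 FPKM, with 211 ± 15.4 FPKM in P56-NPCs and 60.6 ± 14.5 FPKM in P0-NPCs (SD, n = 3). In bulk RNA, fewer cells of a type and less RNA per cell cannot be told apart, and what each cell type gave to a value below was not tested.

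**Figure D1:**
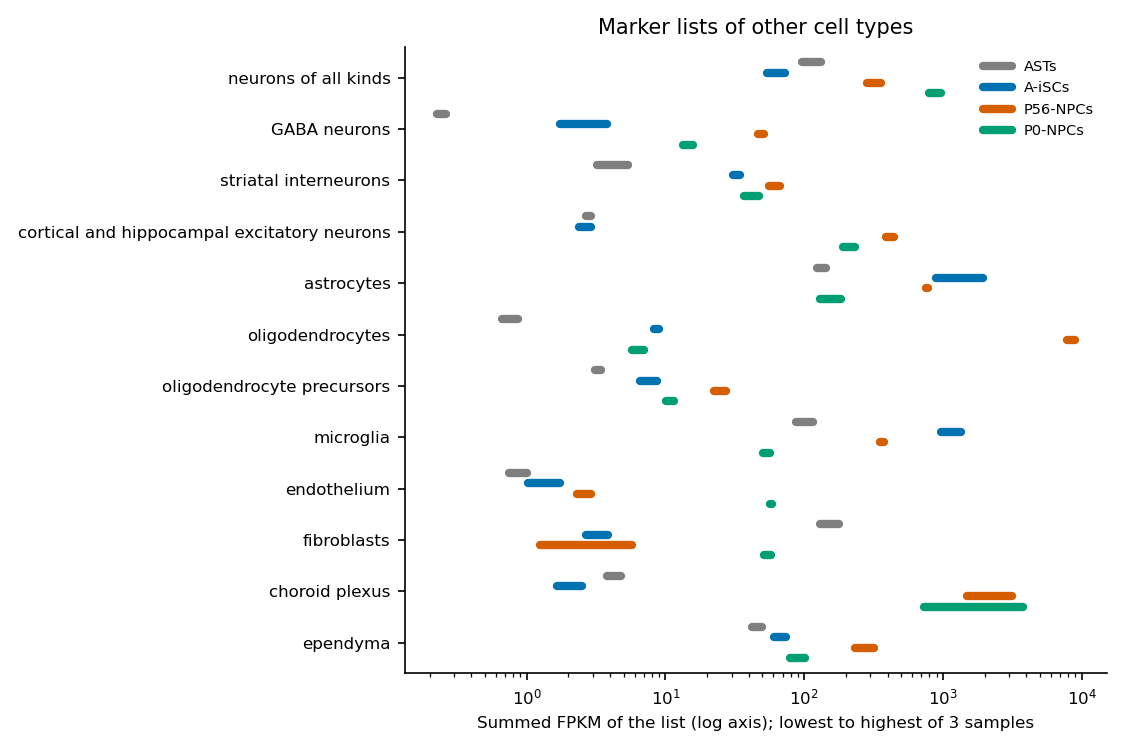
Summed FPKM of each list of cell type markers on a log axis, with a line from the lowest to the highest of the 3 samples in each group. The oligodendrocyte line of P56-NPCs, from 7851 to 8963 FPKM, lies far above those of the other groups.

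Promoter sequence is shown for Drd2, a member that was highest in P56-NPCs, and for Rgs9 and Pde1b, which followed each other across the samples. Each run holds the 250 bases before a RefSeq transcription start on GRCm38.p6, written 5′ to 3′ on the strand of the gene. Capitals mark matches on either strand to the core of the cyclic AMP response element (TGACG), the GC box (GGGCGG) or the TATA box (TATAAA).
Drd2: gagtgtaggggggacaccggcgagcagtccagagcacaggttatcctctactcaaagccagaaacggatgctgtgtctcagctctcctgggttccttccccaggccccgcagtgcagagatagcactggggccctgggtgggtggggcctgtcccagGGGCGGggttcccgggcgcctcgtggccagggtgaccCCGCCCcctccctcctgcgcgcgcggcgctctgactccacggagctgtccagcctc
Rgs9: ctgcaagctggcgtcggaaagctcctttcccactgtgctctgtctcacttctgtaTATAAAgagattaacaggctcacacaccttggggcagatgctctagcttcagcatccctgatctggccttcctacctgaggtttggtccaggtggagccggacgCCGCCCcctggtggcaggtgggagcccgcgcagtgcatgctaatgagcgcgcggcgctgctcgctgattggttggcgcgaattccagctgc
Pde1b: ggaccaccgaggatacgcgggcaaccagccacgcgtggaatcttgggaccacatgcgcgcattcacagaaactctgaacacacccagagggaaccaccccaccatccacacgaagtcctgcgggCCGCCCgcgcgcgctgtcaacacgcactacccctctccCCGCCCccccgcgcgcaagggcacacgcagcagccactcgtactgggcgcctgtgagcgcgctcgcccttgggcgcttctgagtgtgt
The Drd2 window lies at chr9:49340153-49340402 on the plus strand, 224 bases before the gene as the deposited table bounds it. The Rgs9 window lies at chr11:109298182-109298431 on the minus strand, 52 bases before the gene. The Pde1b window lies at chr15:103502784-103503033 on the plus strand and ends at the first base before the gene.

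GC boxes were the match these windows shared, with 2 in Drd2, 1 in Rgs9 and 2 in Pde1b, and 32.7% of 32851 mouse promoters of the same length held at least 1. Pde1b has 2 further RefSeq promoters, and neither held a GC box. A TATA box was found in the Rgs9 window and in 12.4% of all promoters. The cyclic AMP response element core stood in none of these windows and in 17.8% of all promoters. Among the 10 RefSeq promoters of the 6 members that have an entry, the core was found in that of Tac1 alone, with 2 matches. These matches describe letters and no binding was measured. Ppp1r1b, Penk and Adora2a were not in the promoter table.

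The 9 genes did not share a pattern over the 4 groups. The mean was highest in P56-NPCs for 5 genes (Ppp1r1b, Drd1, Drd2, Penk and Tac1), in A-iSCs for 2 (Rgs9 and Pde1b), in P0-NPCs for 2 (Adora2a and Pde10a) and in ASTs for 0. The same groups were highest when values were scaled by library size or by the upper quartile.

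**Figure D2:**
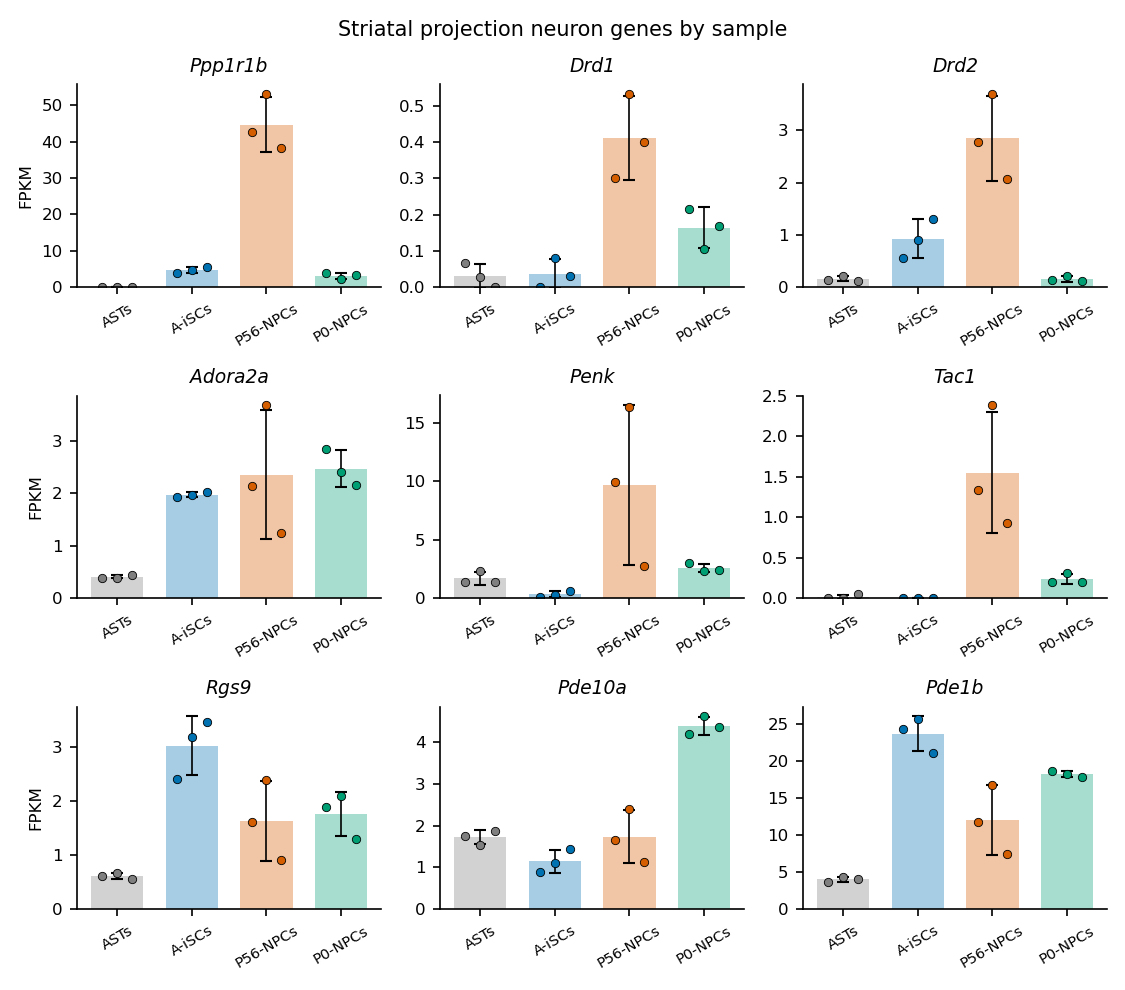
FPKM of each gene in the 12 samples, with a point for each sample, a bar for the mean and an error bar for the SD of 3 samples, on a separate linear axis for each gene. Ppp1r1b stood at 38.3 to 53.1 FPKM in P56-NPCs and at most 5.47 FPKM elsewhere, whereas Rgs9 and Pde1b had their highest bars in A-iSCs.

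Ppp1r1b encodes DARPP-32, the integrator of dopamine signals in projection neurons, and lies at chr11:98348404-98357796 on GRCm38, the build of all gene positions given here. In P56-NPCs it was at 42.8, 53.1 and 38.3 FPKM in replicates 1, 2 and 3. In P0-NPCs it was at 3.91, 2.12 and 3.32 FPKM and in A-iSCs at 3.90, 4.67 and 5.47 FPKM. In ASTs it was at 0.143, 0.118 and 0.0184 FPKM, which rested on 15 fragments over the 3 samples. The P56-NPC samples therefore stood above all others without overlap, those of A-iSCs and P0-NPCs overlapped, and those of ASTs were near 0. The P56-NPC mean was 14.3 times the P0-NPC mean (log2 fold change 3.49, SE 0.18, adjusted p = 1.61e-06) and 9.56 times the A-iSC mean (3.01, SE 0.16, adjusted p = 6.01e-06). A-iSCs stood 50.3 times above ASTs in their mean (log2 fold change 2.37, SE 0.14, adjusted p = 1.39e-05). A-iSCs and P0-NPCs did not pass the test against each other (log2 fold change of P0-NPCs over A-iSCs -0.48, SE 0.19, adjusted p = 0.0559). A long noncoding RNA on the opposite strand, 1700003D09Rik, overlaps Ppp1r1b and was at most 0.262 FPKM in any sample.

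The receptors were low throughout, and the P56-NPC samples had the highest means for both dopamine receptors. Drd1 (chr13:54051183-54055705), the D1 receptor of the direct pathway, was at 0.302, 0.532 and 0.402 FPKM in P56-NPCs and at 0.217, 0.104 and 0.170 FPKM in P0-NPCs. The P56-NPC values rested on 19 to 31 fragments per sample and lay above those of P0-NPCs without overlap. In ASTs Drd1 had 0 to 4 fragments per sample and in A-iSCs 0 to 7, so its mean of 0.0310 ± 0.0330 FPKM in the first and 0.0373 ± 0.0410 FPKM in the second (SD, n = 3) could not be told from each other at this depth. Drd1 did not reach a mean of 1 FPKM in any group and was left out of the test. Without the filter, its log2 fold change of P56-NPCs over P0-NPCs was 0.28 (SE 0.08, adjusted p = 0.0271).

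Drd2 (chr9:49340627-49408177) encodes the D2 receptor of the indirect pathway. It was at 2.78, 3.69 and 2.07 FPKM in P56-NPCs and at 0.565, 0.908 and 1.30 FPKM in A-iSCs. ASTs had 0.140, 0.213 and 0.127 FPKM and P0-NPCs 0.137, 0.216 and 0.114 FPKM. P56-NPCs were thus highest, A-iSCs intermediate, and ASTs and P0-NPCs overlapped near 0. The P0-NPC values rested on 8 to 16 fragments per sample and those of ASTs on 6 to 11, against 87 to 151 in P56-NPCs. The P56-NPC mean was 18.3 times that of P0-NPCs (log2 fold change 1.72, SE 0.16, adjusted p = 2.83e-05) and 3.08 times that of A-iSCs (1.0, SE 0.20, adjusted p = 0.0042). Since 1 is added to each FPKM, these log2 values understate the change of low genes, and with 0.1 in place of 1 the first became 3.51. A-iSCs over ASTs had a 5.78-fold higher mean, which was outside the filter and had an adjusted p of 0.0148 without it.

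Adora2a (chr10:75316877-75334784) encodes the adenosine receptor 2A, which marks the indirect pathway beside Drd2, but its levels ran differently. It was at 2.14, 3.68 and 1.25 FPKM in P56-NPCs, at 2.86, 2.40 and 2.16 FPKM in P0-NPCs and at 1.93, 1.98 and 2.02 FPKM in A-iSCs. ASTs were lower, at 0.390, 0.387 and 0.440 FPKM. Samples of P56-NPCs overlapped with both P0-NPCs and A-iSCs, and ASTs lay below all other samples. The log2 fold change of P56-NPCs was -0.11 over P0-NPCs (SE 0.24, adjusted p = 0.697) and 0.11 over A-iSCs (SE 0.25, adjusted p = 0.719), neither past the test, and without replicate 3 or replicate 2 of P56-NPCs these became 0.15 and -0.16. A-iSCs rose over ASTs by 1.08 on the log2 scale (SE 0.10, adjusted p = 0.000118) and P0-NPCs by 1.30 (SE 0.10, adjusted p = 9.73e-06).

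The ratio of Drd2 to Drd1, an indirect over a direct pathway receptor, was 9.22, 6.94 and 5.16 in P56-NPCs and 0.633, 2.07 and 0.670 in P0-NPCs. The groups did not overlap, and in P0-NPCs both genes of the ratio rested on at most 18 fragments per sample. The exact two-sided permutation test gave p = 0.1, the smallest that 3 samples against 3 allow. This ratio and that of the peptides below were the 2 compared.

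Both peptide precursors had their highest mean in P56-NPCs. Penk (chr4:4133531-4138819) encodes proenkephalin, from which enkephalins are cut. It was at 9.91, 16.4 and 2.71 FPKM in P56-NPCs and at 2.97, 2.33 and 2.38 FPKM in P0-NPCs. ASTs had 1.35, 2.32 and 1.42 FPKM and A-iSCs 0.121, 0.283 and 0.639 FPKM. P56-NPC replicates 1 and 2 stood above all other samples, replicate 3 fell within the range of P0-NPCs, and A-iSCs were lowest without overlap. Penk was 3.77-fold higher in P56-NPCs than in P0-NPCs (log2 fold change 1.33, SE 0.49, adjusted p = 0.0385). This call was lost in 5 of the 6 fits that left out 1 sample (all except the fit without P56-NPC replicate 3), and without P56-NPC replicate 2 the log2 fold change was 0.84 (adjusted p = 0.106). The rise over A-iSCs was 2.74 on the log2 scale (SE 0.52, adjusted p = 0.00318). Penk fell by 1.0 on the log2 scale from ASTs to A-iSCs (SE 0.20, adjusted p = 0.00416), the only member that passed the test in that direction, and with all 4 groups in 1 model its adjusted p was 0.0528.

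Tac1 (chr6:7554879-7565834) encodes the precursor of substance P and neurokinin A, the peptides of the direct pathway. It was at 1.34, 2.38 and 0.929 FPKM in P56-NPCs and at 0.206, 0.313 and 0.203 FPKM in P0-NPCs. A single AST sample had fragments of Tac1 (replicate 3, with 3 fragments and 0.0475 FPKM), and A-iSCs had 0 in all 3 samples. The 4 groups thus ran from P56-NPCs over P0-NPCs to near or at 0 in the astrocyte-derived groups. The P56-NPC mean was 6.44 times the P0-NPC mean (log2 fold change 1.0, SE 0.20, adjusted p = 0.00215). Against A-iSCs, where 0 fragments allow up to 3 over the group or 0.0125 FPKM, Tac1 was at least 124-fold higher in P56-NPCs and at least 19.3-fold higher in P0-NPCs. These limits cover counting error only.

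The Penk to Tac1 ratio was 7.40, 6.86 and 2.92 in P56-NPCs and 14.4, 7.45 and 11.7 in P0-NPCs. All P0-NPC ratios were above those of P56-NPCs, with an exact two-sided permutation p of 0.1. The gap was narrow, at 7.40 against 7.45 for the nearest samples, and Tac1 in P0-NPCs rested on 16 to 31 fragments per sample. The mean log2 ratio of P56-NPCs minus that of P0-NPCs was 2.85 for the receptors and -1.03 for the peptides. Neither could pass a threshold of 0.05 with 3 samples a group, so no difference in direction is concluded.

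Of the genes that end the signal, 2 were highest in A-iSCs. Rgs9 (chr11:109225355-109298129) encodes a regulator that speeds the turn-off of G proteins, with a splice form that is typical of the striatum, and the table does not separate its forms. It was at 2.42, 3.20 and 3.48 FPKM in A-iSCs, above all P56-NPC samples at 1.61, 2.40 and 0.912 FPKM and all P0-NPC samples at 1.90, 2.10 and 1.30 FPKM. ASTs were lowest, at 0.607, 0.679 and 0.565 FPKM. A-iSCs were 4.92-fold higher than ASTs (log2 fold change 1.31, SE 0.13, adjusted p = 0.000173). Between the NPC groups the log2 fold change was -0.09 (SE 0.21, adjusted p = 0.696), and it became 0.12 without P56-NPC replicate 3. Rgs9 was lower in P56-NPCs than in A-iSCs by a log2 fold change of -0.64 (SE 0.22, adjusted p = 0.0383), a call lost without replicate 2 or 3 of A-iSCs or replicate 1 or 3 of P56-NPCs, with adjusted p of 0.103, 0.0762, 0.0897 and 0.0981.

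Pde1b (chr15:103503034-103530052) encodes a calcium and calmodulin dependent phosphodiesterase and was, with Ppp1r1b, among the members of highest level. It was at 24.3, 25.8 and 21.1 FPKM in A-iSCs, at 18.6, 18.2 and 17.9 FPKM in P0-NPCs and at 3.69, 4.34 and 4.11 FPKM in ASTs. P56-NPCs had 11.8, 16.9 and 7.46 FPKM. The 4 groups did not overlap, in the order A-iSCs, P0-NPCs, P56-NPCs and ASTs. The step from ASTs to A-iSCs was 5.86-fold (log2 fold change 2.29, SE 0.12, adjusted p = 9.85e-06). P56-NPCs were lower than A-iSCs (log2 fold change -0.99, SE 0.26, adjusted p = 0.0132). They were also lower than P0-NPCs (-0.63, SE 0.24, adjusted p = 0.0399), where the call was lost in every fit without 1 sample except that without P56-NPC replicate 2, and the log2 fold change was -0.35 without P56-NPC replicate 3 (adjusted p = 0.0553). P0-NPCs were lower than A-iSCs by a smaller step (-0.36, SE 0.11, adjusted p = 0.0223), and this call was lost without any of 5 samples (all but A-iSC replicate 3), with adjusted p up to 0.082.

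Pde10a (chr17:8525372-8986648) encodes the phosphodiesterase that is most enriched in projection neurons among brain cells. It was highest in P0-NPCs, at 4.19, 4.62 and 4.36 FPKM, and all other samples were below. P56-NPCs had 1.66, 2.40 and 1.13 FPKM, ASTs 1.75, 1.54 and 1.88 FPKM and A-iSCs 0.900, 1.10 and 1.43 FPKM. P56-NPCs overlapped with both ASTs and A-iSCs. P0-NPCs were 2.54 times P56-NPCs (log2 fold change of P56-NPCs over P0-NPCs -1.01, SE 0.16, adjusted p = 0.000628) and 3.85 times A-iSCs (log2 fold change 1.34, SE 0.12, adjusted p = 5.05e-05). P56-NPCs over ASTs gave -0.02 (SE 0.17, adjusted p = 0.919), with values from -0.19 to 0.15 when 1 sample was left out. On the opposite strand 3 other genes overlap Pde10a, and none of them was above 0.0786 FPKM in any sample.

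The 6 comparisons between groups share samples, so their counts are given side by side, as in the plot of log2 fold changes. In P56-NPCs over P0-NPCs, 4 of the 8 members tested were higher (Ppp1r1b, Drd2, Tac1 and Penk) and 2 lower (Pde10a and Pde1b), where 39.7% of all 15394 tested genes were higher and 39% lower. The median log2 fold change was 0.45 over the members tested and 0.01 over all genes. Scaling by library size alone moved the median of all genes to -0.49 and the share of calls that were higher from 50.4% to 28.3%. Of the members, Penk lost its call under that scaling (log2 fold change 0.82, adjusted p = 0.136). Drd2 and Tac1 passed the filter through P56-NPCs alone, so that their difference was in part set by the filter.

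Markers of several cell types differed between the same groups. The 3 markers of GABA neurons were all higher in P56-NPCs, at a sum of 46.4 to 51.4 FPKM against 13.3 to 15.9 FPKM in P0-NPCs. All 4 oligodendrocyte markers and both markers of their precursors were higher too, as were all 5 astrocyte markers (750.3 to 783 FPKM and 131 to 183 FPKM), all 4 microglia markers (349.9 to 376 FPKM and 50.5 to 56.8 FPKM) and 3 of 4 ependyma markers (232 to 318 FPKM and 78.5 to 101 FPKM). Of the 9 markers of neurons of all kinds, 5 were higher and 3 lower. Their sum was nevertheless lower, at 285 to 355 FPKM against 792 to 968 FPKM, since it was carried by Tubb3, a tubulin that is abundant in young neurons, with 76.8 FPKM in P56-NPCs and 634 FPKM in P0-NPCs. All 3 endothelial and all 3 fibroblast markers were lower in P56-NPCs, and 2 of each list (Pecam1 and Flt1, Col1a1 and Lum) reached the filter through P0-NPCs alone, which favours a lower call. Mag of oligodendrocytes and Pvalb of interneurons reached it through P56-NPCs alone. Of the 8 markers of striatal interneurons 4 were tested, with 2 higher and 1 lower, and the list summed to 55.8 to 66.7 FPKM and 36.9 to 47.2 FPKM. No marker of these lists was at 0 in all samples of either group, and their part in the members' difference was not tested.

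In P56-NPCs over ASTs, 7 of 8 were higher and 0 lower, beside 39.1% and 39.8% of all 15146 genes. Of the 8 tested, 5 (Ppp1r1b, Drd2, Adora2a, Tac1 and Rgs9) reached the filter through P56-NPCs alone, which favours a higher call. Pde10a was the member that did not pass, and the Penk call was lost without P56-NPC replicate 1 or 2 (adjusted p = 0.0599 and 0.0513). Library size scaling took the share of higher calls here from 49.5% to 39.1% and kept the 7. In P56-NPCs over A-iSCs, 4 of 8 were higher (Ppp1r1b, Penk, Tac1 and Drd2) and 2 lower (Pde1b and Rgs9), beside 30.9% and 30.1% of all 15044 genes. Drd2, Penk and Tac1 reached the filter through P56-NPCs alone. Under library size scaling 26.9% of all calls in that comparison were higher, against 50.6% before. Most cell type markers were higher in P56-NPCs in both comparisons. Against ASTs these were 8 of 9 markers of neurons of all kinds, all 3 of GABA neurons, all 5 of astrocytes and all 4 each of oligodendrocytes, microglia, ependyma and choroid plexus. Against A-iSCs these were all 9 markers of neurons, all 3 of GABA neurons and all 4 each of oligodendrocytes, ependyma and choroid plexus, while 2 of 5 astrocyte and 2 of 4 microglia markers were higher and 2 of each lower. Of the markers of neurons, 4 reached the filter through P56-NPCs alone in either comparison. The part of these cell types in the members' differences was not tested.

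In A-iSCs over ASTs, 4 of the 6 members tested were higher (Ppp1r1b, Pde1b, Rgs9 and Adora2a) and Penk was lower, where 25.2% of all 14087 genes were higher and 29.6% lower. Ppp1r1b, Rgs9 and Adora2a reached the filter through A-iSCs alone and Penk through ASTs alone, so the direction of 4 of these 5 calls was favoured by the filter. The median log2 fold change was 1.20 over those members and -0.06 over all genes. Of all calls 46% were higher, and 59.7% after library size scaling, which kept the 5 calls of members. Pde10a was at -0.35 (SE 0.13, adjusted p = 0.054), and it passed without A-iSC replicate 3 (-0.45, adjusted p = 0.0115). All 4 microglia markers were higher in A-iSCs as well, with a sum of 86.7 to 115 FPKM in ASTs and 974 to 1343 FPKM in A-iSCs, as were 4 of 5 astrocyte markers, with 124 to 144 FPKM and 885 to 1937 FPKM, and 3 of 4 ependyma markers, with 42.0 to 49.5 FPKM and 60.5 to 74.1 FPKM. Of the 9 markers of neurons of all kinds 5 were tested, and Stmn2 was the only one called, from 53.8 FPKM in ASTs to 7.16 FPKM in A-iSCs. The 8 markers of striatal interneurons summed to 3.20 to 5.39 FPKM in ASTs and 30.9 to 34.5 FPKM in A-iSCs, mostly from Pvalb, the calcium buffer parvalbumin, at 0.324 FPKM and 26.5 FPKM. In ASTs Sst of that list was at 0 in all samples and in A-iSCs Slc5a7 was. The 4 oligodendrocyte markers summed to 0.668 to 0.864 FPKM and 8.31 to 9.03 FPKM, with both tested genes higher. For A-iSCs the 3 fibroblast markers summed to 2.68 to 3.83 FPKM, down from 131 to 178 FPKM for ASTs. The AST sum was nearly all Col1a1, at a mean of 158 FPKM, against 2.98 FPKM after sphere culture. Dcn and Lum were below the filter in both groups and moved in opposite directions. Dcn had means of 0.248 FPKM before and 0.167 FPKM after sphere culture, and Lum had 0.0374 and 0.128 FPKM. Some of the higher markers reached the filter through A-iSCs alone, among them P2ry12 of microglia, Ccdc153 and Tmem212 of ependyma, and Pvalb. The part of these cell types in the change was not tested.

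In P0-NPCs over ASTs all 6 members tested were higher and 0 lower, beside 38.1% and 40.9% of all 15010 genes. Ppp1r1b, Adora2a and Rgs9 reached the filter through P0-NPCs alone. Penk had the smallest step (log2 fold change 0.41, SE 0.15, adjusted p = 0.0349), and its call was lost without any sample of P0-NPCs or replicate 1 or 3 of ASTs (adjusted p from 0.0561 to 0.119). Library size scaling raised the share of higher calls from 48.2% to 58.2%. All 9 markers of neurons of all kinds, all 3 of GABA neurons, all 7 of excitatory neurons, all 3 of endothelium and the 3 tested of choroid plexus were higher in P0-NPCs as well, while 2 of 5 astrocyte markers were higher and 3 lower. In P0-NPCs over A-iSCs 2 of 6 were higher (Penk and Pde10a) and 2 lower (Rgs9 and Pde1b), beside 33.6% and 31.5% of all 15170 genes. Penk reached the filter through P0-NPCs alone. Ppp1r1b passed this test when A-iSC replicate 1 or P0-NPC replicate 1 was left out (adjusted p = 0.0458 and 0.0371), and Rgs9 failed it without A-iSC replicate 2 or P0-NPC replicate 3 (adjusted p = 0.0561 and 0.0648). In that comparison 8 of 9 markers of neurons and all 3 of GABA neurons were higher in P0-NPCs, and 4 of 5 astrocyte and all 4 microglia markers were lower. Many neuronal markers reached the filter through P0-NPCs alone in both comparisons. Against ASTs, all 3 endothelial markers and Clic6 of choroid plexus did so too. This favours a higher call, and the part of these cell types was not tested.

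**Figure D3:**
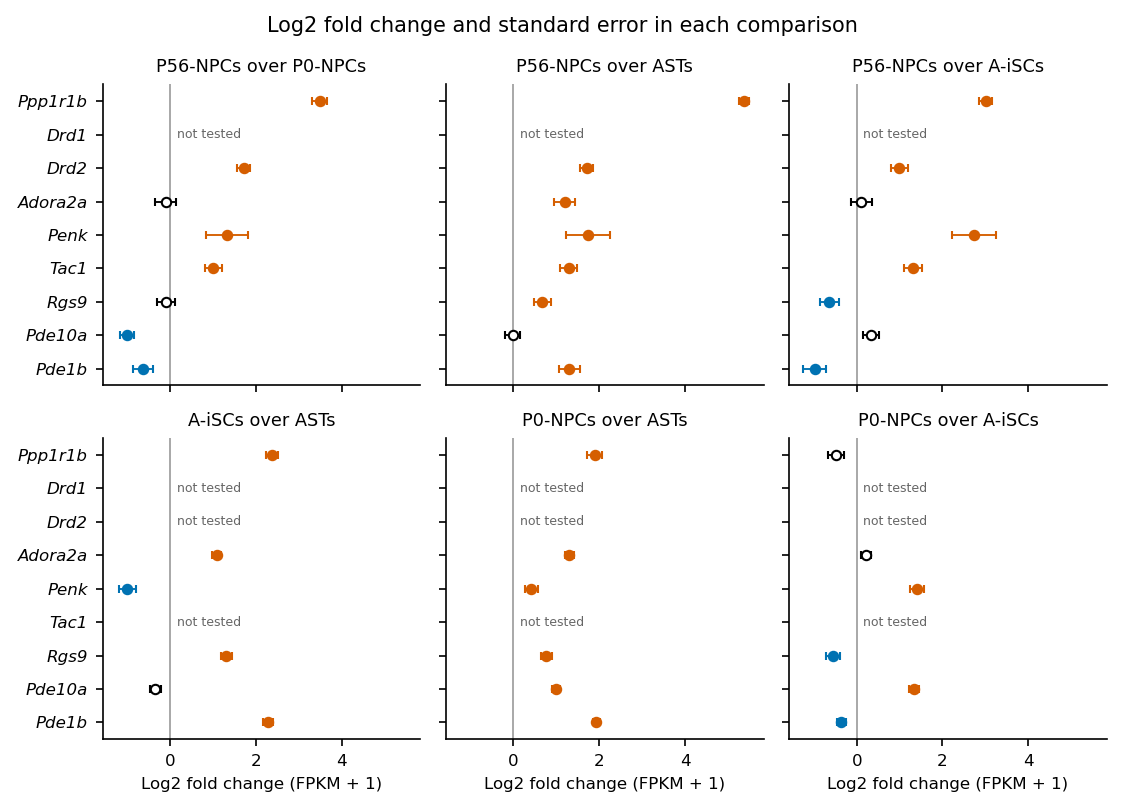
Log2 fold change of FPKM + 1 (points) with its standard error (bars) for each gene in the 6 comparisons; filled orange and blue points passed the test as higher and lower, and open points did not pass. Ppp1r1b has the largest value in the 3 panels of P56-NPCs, at 3.49, 5.38 and 3.01, and Pde1b and Rgs9 lie to the left of 0 against A-iSCs.

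Other genes of the same neurons and pathways were taken as 10 lists of 77 genes, with 58 tested in P56-NPCs over P0-NPCs, of which 31 were higher and 20 lower, beside 39.7% and 39% of all tested genes. Of the 58, 10 reached the filter through P56-NPCs alone (3 of the other projection neuron genes, Six3, Gsx2, Dlx6 and 4 phosphodiesterases) and 2 through P0-NPCs alone, which favours a call in that direction. Under library size scaling 20 were higher and 28 lower, so the balance of the 2 directions turned with the shift of all genes given above. Among 14 other genes enriched in projection neurons, 12 were tested, 10 were higher and 1 was lower. Among the largest steps up were Rasd2, a small GTPase also called Rhes (log2 fold change 3.14, SE 0.27, adjusted p = 2.27e-05), and Gng7, a G protein gamma subunit that couples to adenylyl cyclase (2.52, SE 0.25, adjusted p = 4.38e-05). Cnr1, the cannabinoid receptor that many neurons outside the striatum also use, was the gene that was lower (-2.55, SE 0.08, adjusted p = 1.81e-07). Rasgrp2 had 0 fragments in all 12 samples.

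The pathway lists were short. Of 6 direct pathway genes 3 were tested, and Sfxn1, a mitochondrial transporter, was higher (log2 fold change 0.47) while Pdyn, the dynorphin precursor (-0.65), and Chrm4, a muscarinic receptor (-0.30), were lower. Chrm4 reached the filter through P0-NPCs alone, which favours a lower call. Both tested genes of the 4 on the indirect pathway list were higher, and these were the transcription factors Six3 (1.97), which was at 0.536 FPKM in P0-NPCs and so was tested only for its level in P56-NPCs, and Sp9 (1.43). Of 6 further transcription factors 4 were tested: Foxp1 (-1.46), Bcl11b (-1.28) and Zfp503 (-0.43) were lower and Meis2 was higher (0.22). Bcl11b, which encodes CTIP2, is also used by hippocampal and cortical neurons. Among 8 genes of ventral forebrain progenitors and neuroblasts, Sp8 (1.27), Dlx6 (1.03) and Gsx2 (0.54) were higher and 2 were lower, among them Dcx (-4.36), which marks young neurons.

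Of the 14 genes of DARPP-32 kinases and phosphatases 5 were higher and 7 lower, beside the 39.7% and 39% of all tested genes, and nothing is read from this count. The largest steps were those of Cdk5r1, the p35 activator of the kinase CDK5 (log2 fold change -2.41), and of the protein kinase A subunit Prkar2b (-1.29). Of 11 other phosphodiesterases, 6 were higher, with Pde4b (2.31) and Pde8b (1.72) on top, and 4 were lower, with Pde7a (-1.69) the lowest. Adora1 (2.17) and Adora2b (1.97), adenosine receptors 1 and 2B, were both higher and were the only tested genes of 6 other dopamine and adenosine receptors. Of 3 partners of Rgs9, the anchor Rgs7bp was higher (1.51) and Gnb5, its G protein beta subunit, was lower (-0.24). None of the 5 receptors of the peptides reached the filter.

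**Figure D4:**
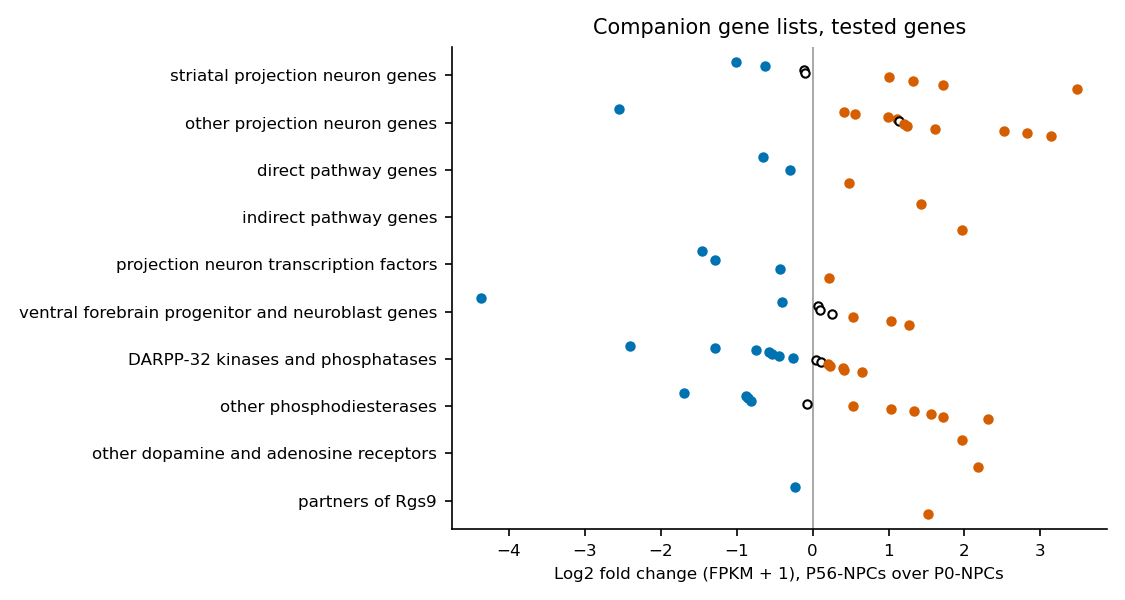
Log2 fold change of FPKM + 1 of P56-NPCs over P0-NPCs for each tested gene of the lists named on the vertical axis, with filled orange and blue points for genes that passed the test as higher and lower and open points for the rest. Points of other projection neuron genes lie to the right of 0 except Cnr1 at -2.55.

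In A-iSCs over ASTs, where Ppp1r1b, Pde1b, Rgs9 and Adora2a rose, most companion genes of projection neurons were below the filter. Of the 14 listed, 4 reached it, with Gng7 higher (log2 fold change 1.07, SE 0.13, adjusted p = 0.000362) and Dclk3 (-0.84, SE 0.12, adjusted p = 0.000858) and Tmem158 (-0.45, SE 0.14, adjusted p = 0.0276) lower. Dclk3 reached the filter through ASTs alone, which favours a lower call. Gng7 was at 1.06 ± 0.161 FPKM in ASTs, 3.34 ± 0.449 FPKM in A-iSCs and 71.3 ± 26.3 FPKM in P56-NPCs (SD, n = 3). Rasd2 was at most 0.265 FPKM in any AST or A-iSC sample. Scn4b, a sodium channel subunit, had 0 fragments in all A-iSCs. On the list of ventral forebrain genes 4 of 5 tested were higher in A-iSCs, beside 25.2% of all genes, among them Dcx (1.83) and Dlx1 (1.71), both on the log2 scale. Dcx and Dlx5 reached the filter through A-iSCs alone, so the direction of 2 of the 4 calls was favoured by it. The 3 markers of GABA neurons summed to 1.74 to 3.77 FPKM in A-iSCs and 0.226 to 0.261 FPKM in ASTs, and in P56-NPCs to 46.4 to 51.4 FPKM.

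The 3 P56-NPC samples differed from each other in these genes by more than in the median gene. Replicate 2 was highest and replicate 3 lowest for 8 of the 9 members, with Drd1 the exception, and the same number was found under library size and upper-quartile scaling. Among genes with a mean of at least 1 FPKM in P56-NPCs, this order held for 8 of 8 members and for 27.5% of all 13862 genes. The median coefficient of variation was 42.2% over those members and 7.56% over all. The ratio of replicate 2 to replicate 3 had a median of 2.41 over the members and of 1.01 over all genes, and it ran from 1.39 for Ppp1r1b to 6.03 for Penk.

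Other projection neuron genes showed the same order in 10 of 12, with a median ratio of 1.91, and Scn4b (7.84) and Syndig1l (7.57) had ratios above that of Penk. Of the markers of neurons of all kinds 8 of 9 had it, with a smaller median ratio of 1.23. Of the 3 markers of GABA neurons 1 had it, and their coefficients of variation were 1.72% for Gad1, 14.6% for Gad2 and 2.59% for Slc32a1. None of the 4 choroid plexus and 4 ependyma markers had this order, and their median ratios were 0.590 and 0.744, so these lists were lower in replicate 2 than in replicate 3. Ttr, the main choroid plexus transcript, had a ratio of 0.465. The oligodendrocyte markers had a median ratio of 0.859. These sets were picked with the values in view and carry no test, and the part of the other cell types in this spread was not tested.

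**Figure D5:**
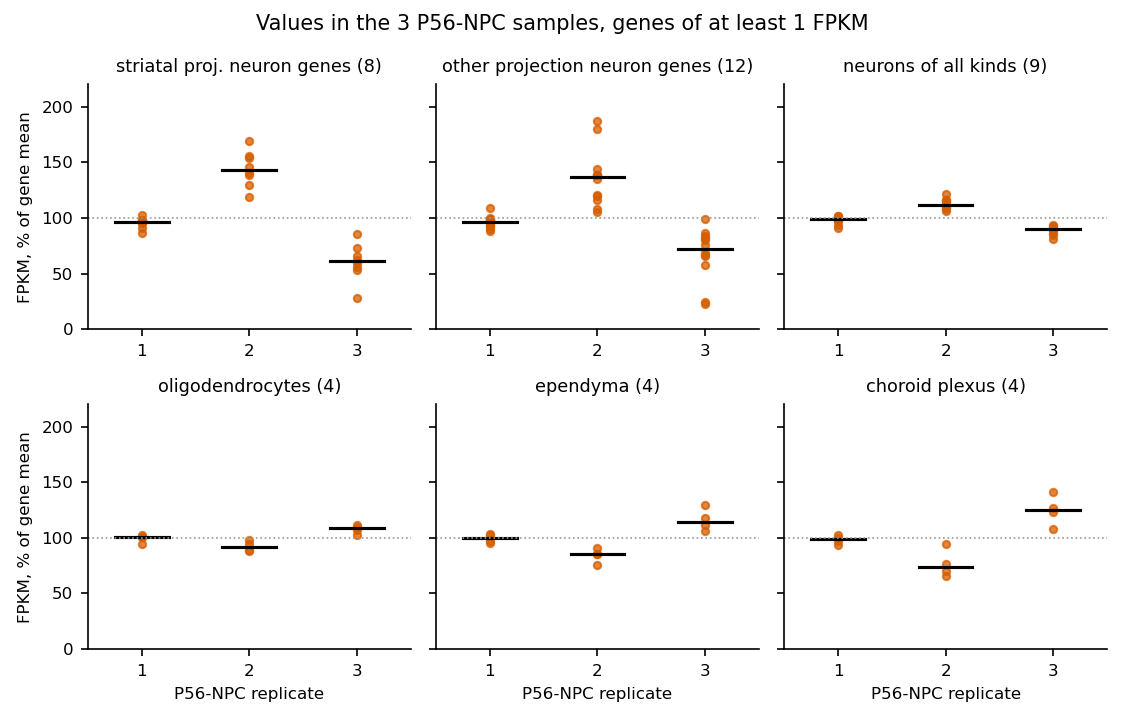
FPKM of each gene as a percent of its mean over the 3 P56-NPC samples, for genes of at least 1 FPKM, with a point for each gene and a line for the median of its list. Points of the striatal projection neuron genes have a median of 60.9% in replicate 3, and choroid plexus markers one of 125% there.

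Across the 12 samples the 28 pairs of the 8 members of at least 1 FPKM in any group had a Pearson's r of log2(FPKM + 1) from -0.37 to 0.92, given with no test, since all points share their libraries and groups. The highest were Rgs9 with Pde1b (r = 0.92), Ppp1r1b with Drd2 (0.91), Penk with Tac1 (0.90) and Adora2a with Pde1b (0.88). Ppp1r1b had r = 0.66 with Adora2a, 0.61 with Penk and 0.41 with Pde1b. Pde10a had at most 0.37 with any other member, and the lowest value of all was its -0.37 with Drd2. Across the members' mean profile, scaled gene by gene over the 8 members of at least 1 FPKM in any group, the most alike of 13652 protein-coding genes was the potassium channel gene Kcnk3 (r = 0.958). The next were Zeb1 (0.952), Cdc42ep4 (0.949), Anks1 (0.943), Cul9 (0.938), Hmbox1 (0.937), 1700023F06Rik (0.935), Trappc12 (0.935), Trim9 (0.935) and Rab11fip3 (0.933). Kcnk3 itself was low, at 1.45 FPKM in P56-NPCs and 0.121 FPKM in ASTs.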

How the data were processed

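RNA of 12 samples, 3 in each of 4 groups, was analysed. Sequencing was paired-end, from libraries of a NEBNext Ultra kit. The values are FPKM, deposited by the authors as 1 table for 55862 genes, with gene positions and lengths. The unit is not named in the table and was found from the values, since multiplying FPKM by gene length gave whole numbers of 1 step per sample for 100% of the values (tolerance 0.01). Fragments recovered in this way showed that the library sizes behind the FPKM already included a scaling between samples. The submitters' processing notes name Bowtie 0.12.2 and mm8, whereas 99.5% of the gene positions were those of GENCODE M21 on GRCm38. Strandedness of the counting and the other settings are not given in the sources used here, so overlapping genes on opposite strands may share fragments.

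Groups were compared in pairs with limma 3.58.1 (lmFit, eBayes with trend) in R 4.3.3 on log2(FPKM + 1), keeping genes whose mean reached 1 FPKM in either group. The threshold was a Benjamini-Hochberg adjusted p of 0.05 over all tested genes. The fit was tested on simulated data. A limit of 3 fragments was used for a gene at 0. Companion and marker lists were taken by symbol, and from each companion list up to 3 called genes of largest change, and genes with 0 fragments in a whole group, were named; a few further genes (Meis2, Kcnk3 levels, Gfap, Camk2a, Tubb3, Stmn2, Pvalb, Scn4b and Syndig1l ratios and Ttr) were chosen after their values were seen. A few genes that the rule names are not reported here. The members and lists were chosen with earlier results of these data known. Alternatives were a pseudocount of 0.1, no filter, library size and upper-quartile scaling, all 4 groups in 1 model, a replicate block, a log2 fold change beyond 1, limma-voom on the recovered fragments, and leaving out each sample. Promoter sequences were from RefSeq on GRCm38.p6. Tables, permutation tests and figures were made in Python 3.11.15 (scipy 1.17.1, pandas 2.3.3, numpy 2.4.6, matplotlib 3.10.9). All samples and columns were used.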

Additional observations from a re-analysis of the deposited data

How the results depend on the processing

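Over 42 results and 546 alternatives, 491 kept their direction and side of the threshold, 41 lost their call, 8 gained one and 6 changed direction. For the 6 changes of direction the reported value was within 0.11 of 0. Scaling by library size gave -0.26 for Adora2a in P56-NPCs over A-iSCs, and leaving out 1 sample gave -0.16 to 0.37 there. Leaving out 1 sample gave -0.38 to 0.15 for Adora2a and -0.30 to 0.12 for Rgs9 in P56-NPCs over P0-NPCs, and -0.19 to 0.15 for Pde10a in P56-NPCs over ASTs. Asking for a log2 fold change beyond 1 left 3 of 6 members called in P56-NPCs over A-iSCs, 3 of 6 in P0-NPCs over ASTs, 2 of 4 in P0-NPCs over A-iSCs and 26 of 51 companion genes in P56-NPCs over P0-NPCs. The 4 in P0-NPCs over A-iSCs became 7 with no filter, because Drd1, Drd2 and Tac1 were then tested, and were 2 to 4 without 1 sample (2 without A-iSC replicate 2 or P0-NPC replicate 3). Penk in P0-NPCs over ASTs lost its call in 10 alternatives and Penk and Pde1b in P56-NPCs over P0-NPCs in 7 and 6, and the cause was not tested. Same-numbered samples did not deviate together in every pair of any comparison, so the numbers were not taken to pair samples. With the replicate block, 5 instead of 6 members were called in P56-NPCs over A-iSCs, where Rgs9 had an adjusted p of 0.0515, and 5 instead of 6 in P0-NPCs over ASTs, where Penk had 0.0541. Low levels limit what can be said of Drd1 and Tac1, which rested on at most 31 fragments per sample outside Tac1 in P56-NPCs, and of Drd2 in P0-NPCs and ASTs, with at most 16.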
